A study of Mus musculus with 6 samples.

Results

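This account covers the mouse genes for cyclin-dependent kinase (CDK) inhibitors together with Rb1, Lmnb1 and Glb1, genes used as markers of senescence. They were taken by symbol from a table of read counts per gene, which held 10 of 10 such genes among 32061 genes in all. The 10 genes are the 3 of the CIP/KIP family (Cdkn1a, Cdkn1b and Cdkn1c), the 4 of the INK4 family (Cdkn2a, Cdkn2b, Cdkn2c and Cdkn2d), and Rb1, Lmnb1 and Glb1. RNA came from 6 samples of cultured biliary epithelial cells, the lining cells of the bile ducts, 3 labelled depleted of primary cilia and given 4OHT and 3 labelled competent for primary cilia and not given it. In both groups ducts picked from digested mouse liver were grown as organoids in gel for 4 to 5 passages and then moved onto collagen-coated plates. Count columns are named KO, taken as the depleted samples, or WT, taken as the competent samples. 4OHT commonly stands for 4-hydroxytamoxifen, a drug that activates Cre recombinases fused to a modified oestrogen receptor. The labels name no allele, Cre driver, strain or age, and they do not say whether samples of a group came from separate animals or cultures, so p-values reflect no more than the spread among these samples, which could be technical. Exposure to 4OHT and loss of cilia went together in all samples and cannot be told apart.

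CDK inhibitors stop the cell cycle by blocking the kinases that cyclins activate. INK4 proteins bind CDK4 and CDK6, while CIP/KIP proteins bind a wider range of cyclin-CDK complexes, and both keep the retinoblastoma protein RB in the form that holds back E2F transcription factors. A lasting rise of p16 (from Cdkn2a) or p21 (from Cdkn1a), a loss of lamin B1 (Lmnb1) and a rise of lysosomal beta-galactosidase (Glb1) are the textbook signs of senescence, a stable arrest that has been described in bile duct cells of injured liver.

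Promoters are shown for the CDK inhibitor genes with the largest differences between the groups. Cdkn2a and Cdkn2b share 1 locus and strand of mouse chromosome 4, and Cdkn2a has separate start sites for p16 and for p19Arf, a different protein that shares its later exons. Sequences are from RefSeq (GRCm38.p6), lie upstream of the annotated start and are given 5′ to 3′ on the strand of the gene. Capitals mark matches, on either strand, to a TATA box (TATAAA), a GC box (GGGCGG), an E2F site (TTTNNCGC), an AP-1 site (TGANTCA), an EGR site (GCGNGGGCG) or an E-box (CACGTG). The windows are chr17:29093519-29093768 on the plus strand for Cdkn1a and, on the minus strand, chr4:89311040-89311282 for Cdkn2b, chr4:89282193-89282442 for the p16 start and chr4:89294654-89294869 for the p19Arf start.
Cdkn1a: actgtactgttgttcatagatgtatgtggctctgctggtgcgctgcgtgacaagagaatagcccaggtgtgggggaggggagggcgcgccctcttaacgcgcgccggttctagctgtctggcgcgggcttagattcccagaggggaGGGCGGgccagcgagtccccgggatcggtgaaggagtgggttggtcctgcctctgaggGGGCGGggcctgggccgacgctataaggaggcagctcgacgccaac
Cdkn2b: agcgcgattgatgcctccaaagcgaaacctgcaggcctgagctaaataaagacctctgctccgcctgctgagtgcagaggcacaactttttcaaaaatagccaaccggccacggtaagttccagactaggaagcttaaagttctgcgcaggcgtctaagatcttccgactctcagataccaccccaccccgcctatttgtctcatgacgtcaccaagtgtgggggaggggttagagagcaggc
Cdkn2a p16 start: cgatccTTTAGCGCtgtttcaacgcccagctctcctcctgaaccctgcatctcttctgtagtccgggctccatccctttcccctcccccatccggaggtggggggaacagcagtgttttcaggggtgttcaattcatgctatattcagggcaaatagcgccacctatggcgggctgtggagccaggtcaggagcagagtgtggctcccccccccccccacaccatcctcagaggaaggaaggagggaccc
Cdkn2a p19Arf start: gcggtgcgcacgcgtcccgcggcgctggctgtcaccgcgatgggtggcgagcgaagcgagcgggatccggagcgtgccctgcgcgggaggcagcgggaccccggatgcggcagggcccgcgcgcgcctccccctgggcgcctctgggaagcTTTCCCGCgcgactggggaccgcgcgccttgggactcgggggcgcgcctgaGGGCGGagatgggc
The Cdkn1a window held 2 GC boxes, with first bases 104 and 46 bases upstream of the start, and 32.7% of 32817 annotated mouse promoters held at least 1 in 250 bases. An E2F match stood 244 bases upstream of the p16 start, where 4.28% of windows of 250 bases hold one, and another 65 bases upstream of the p19Arf start, where 3.76% of windows of 216 bases do. The p19Arf window also held a GC box, which 31.6% of windows of that length hold. No match overlapped another, and the Cdkn2b window held none of these strings. A match is a description of letters, not of a bound site. GC content was 64.8% for Cdkn1a, 53.5% for Cdkn2b, 60.0% for the p16 start and 78.7% for the p19Arf start.

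Depleted samples had 26293486 to 36998935 counts in all and competent samples 32199606 to 36093068. Levels are given in CPM, counts relative to library size, with library sizes set by TMM from the bulk of genes. The floor of 3 counts came to 0.085 to 0.119 CPM in depleted and 0.0797 to 0.0881 CPM in competent samples, for counting error only. Of 6 biliary markers, 1 rose (Sox9), 4 fell and 1 missed the threshold, with summed levels of 4070 to 4340 CPM in depleted and 5850 to 5940 CPM in competent samples. Krt7 stood at 2470 ± 51.2 CPM in depleted and 3150 ± 67.7 CPM in competent cells (SD, n = 3 each), whereas Krt19 was low, at 8.33 ± 1.25 and 12.5 ± 1.13 CPM. Summed CPM of 4 endothelial markers was 0.198 to 0.499 in depleted and 0 to 0.159 in competent samples. The sum over 6 fibroblast and stellate cell markers was 2.78 to 3.57 against 1.27 to 1.57, nearly all of it Col1a1, and Col3a1 and Lum had no count in any sample. The sum over 5 leukocyte markers was 5.27 to 6.18 against 3.32 to 3.88, nearly all of it Cd68. The sum over 5 hepatocyte markers was 15.6 to 17.4 against 18.4 to 25.4, most of it Ttr. What part these marker differences have in the results was not tested. Wdr35, known from the study and not from the labels as the deleted gene, stood at 28.0 ± 1.6 CPM in depleted and 33.3 ± 1.98 CPM in competent cells (adjusted p = 0.00245), and a whole-gene count cannot show whether an exon is missing.

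The 10 genes did not move as a block. In depleted cells Cdkn1a, Cdkn2b and Rb1 rose, Cdkn2a, Cdkn2c, Lmnb1 and Glb1 fell, and Cdkn1b, Cdkn1c and Cdkn2d did not pass the threshold of 0.05 on the adjusted p of edgeR's quasi-likelihood test. All 10 passed the filter on low counts. So 7 of 10 were called, while 69.2% of all 13839 genes tested were called (34.9% higher and 34.3% lower), a share close to that of the members. Groups did not overlap for 8 of the 10, against 72.5% of all genes tested. Their median log2 change was -0.19 and that of all tested genes was -0.0057. Changes were modest: 2 of the 10, Cdkn1a and Cdkn2a, were called with a change above 1.5-fold, as were 28.4% of all genes tested. In bulk RNA a change in all cells and a change in the share of cells that express a gene cannot be told apart.

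**Figure D1:**
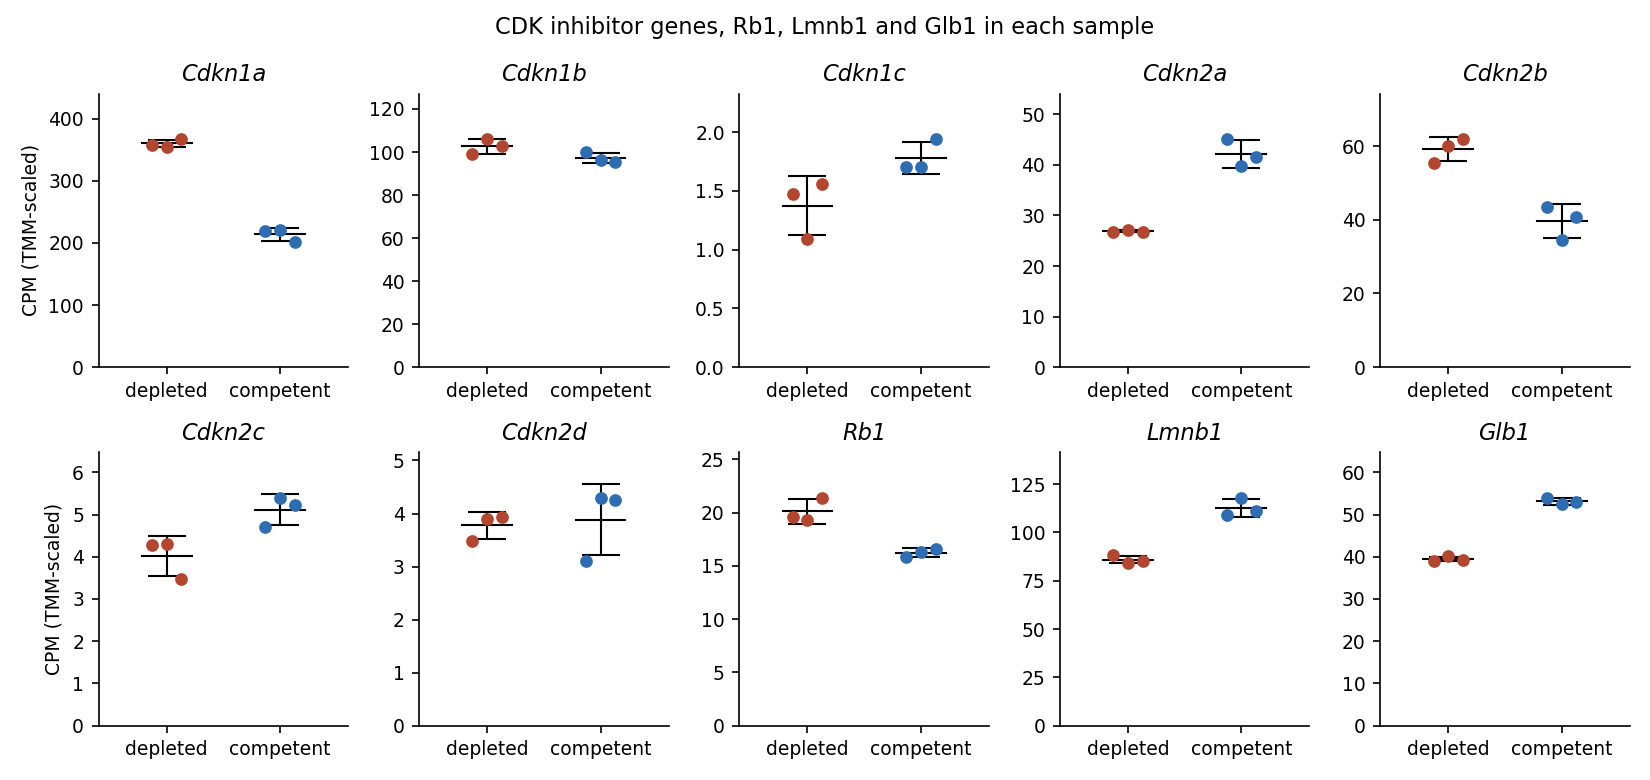
CPM (TMM-scaled, vertical axes from 0) of the 10 genes in each depleted (left, red) and competent (right, blue) sample, with the mean and SD of 3 samples in black. Depleted samples of Cdkn1a sit at 355 to 367 CPM, above all competent samples, and depleted samples of Cdkn2a at 26.7 to 27.1 CPM, below all competent samples.

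Cdkn1a encodes p21, the CIP/KIP inhibitor that p53 induces after DNA damage. Cdkn1a (ENSMUSG00000023067, chromosome 17, 29090976 to 29100727, plus strand, GRCm38) had 358, 355 and 367 CPM in depleted samples and 219, 220 and 202 CPM in competent samples. The groups were far apart and the spread within each was small. The log2 change was 0.75 (SE 0.046, 1.69-fold, adjusted p = 7.80e-09). It was called the same way in every alternative tried, and was 1.80-fold with the trend of change with transcript length removed. AC167363.2, annotated on the opposite strand, covers 7.68% of the exon bases of Cdkn1a.

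Cdkn1b encodes p27, a CIP/KIP inhibitor of quiescent cells that is controlled largely by protein breakdown. Cdkn1b (ENSMUSG00000003031, chromosome 6, 134920401 to 134925513, plus strand) had 98.9, 106 and 103 CPM in depleted samples, against 100, 96.5 and 95.5 CPM in competent samples. The groups overlapped. The log2 change of Cdkn1b was 0.07 (SE 0.043, adjusted p = 0.151), and it was -0.08 with the length trend removed (adjusted p = 0.108), so no direction can be given.

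Cdkn1c, an imprinted gene that encodes p57, had the lowest level of the 10 genes per kilobase of transcript in both groups. Its raw counts were 37, 35 and 55 in depleted samples and 58, 60 and 73 in competent samples. Each depleted sample was below each competent sample after scaling, at 1.09 to 1.56 against 1.70 to 1.94 CPM, but the change did not pass (log2 change -0.38, SE 0.20, adjusted p = 0.108). An antisense gene, Gm44732, covers 30.7% of the exon bases of Cdkn1c, and as the sources used here do not say whether counting used strand, reads of this pair cannot be told apart.

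Cdkn2a gives p16, which binds CDK4 and CDK6, and p19Arf, which protects p53 by holding back MDM2. Cdkn2a (ENSMUSG00000044303, chromosome 4, 89274471 to 89294653, minus strand) had 26.7, 27.1 and 26.8 CPM in depleted samples and 45.1, 39.8 and 41.5 CPM in competent samples. The depleted samples were close to each other and all were below the competent samples. The log2 change was -0.65 (SE 0.056, 1.57-fold lower, adjusted p = 2.53e-07). The fall was 1.25-fold with the length trend removed (log2 change -0.33, adjusted p = 5.55e-05); the annotated transcripts from the p16 and p19Arf starts shown above are short, at 852 and 895 nt. A count per gene does not separate them, so which transcript fell was not tested.

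Cdkn2b encodes p15, the INK4 inhibitor that TGF-beta induces. Cdkn2b (ENSMUSG00000073802, chromosome 4, 89306299 to 89311039, minus strand) had 55.5, 59.9 and 61.9 CPM in depleted samples, against 43.5, 34.5 and 40.8 CPM in competent samples. All depleted samples were above all competent ones, although the competent samples were spread more widely. The log2 change was 0.58 (SE 0.074, 1.49-fold, adjusted p = 1.08e-05), and 1.79-fold with the length trend removed. Cdkn2a and Cdkn2b thus changed in opposite directions. Counts of Cdkn2b per count of Cdkn2a, a ratio that does not depend on library scaling, were 2.08, 2.21 and 2.31 in depleted samples and 0.965, 0.868 and 0.982 in competent samples.

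Cdkn2c and Cdkn2d encode the INK4 inhibitors p18 and p19 (p19Ink4d, not p19Arf), best known from development and differentiation. Cdkn2c had 108, 138 and 123 raw counts in depleted samples and 160, 191 and 197 in competent samples, and scaled values of 3.48 to 4.30 against 4.70 to 5.40 CPM did not overlap. Its fall of 1.28-fold (log2 change -0.35, SE 0.13, adjusted p = 0.0241) was at the edge of the threshold. The call was lost with DESeq2 (adjusted p = 0.0670), without depleted replicate 3 (log2 change -0.25), without competent replicate 2 (-0.32) and without competent replicate 3 (-0.34). Cdkn2d had 88, 125 and 139 raw counts in depleted samples, against 106, 152 and 160 in competent samples. Its groups overlapped, at 3.49 to 3.94 CPM in depleted and 3.11 to 4.30 CPM in competent samples (log2 change -0.04, SE 0.15, adjusted p = 0.823).

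Rb1 encodes the retinoblastoma protein, the pocket protein that the CDKs phosphorylate. Rb1 (ENSMUSG00000022105, chromosome 14, minus strand) had 19.6, 19.3 and 21.4 CPM in depleted samples and 15.8, 16.3 and 16.6 CPM in competent samples, which did not overlap. The rise was 1.24-fold (log2 change 0.31, SE 0.065, adjusted p = 8.44e-04). The call was lost with the length trend removed (log2 change 0.15, adjusted p = 0.0523); the main Rb1 transcript is 4656 nt long. Exons of Rcbtb2 and Lpar6 on the opposite strand cover 8.11% and 6.78% of its exon bases. Rcbtb2 stood at 14.4 ± 0.527 CPM in depleted and 14.6 ± 0.719 CPM in competent cells (SD). Lpar6 stood at 14.5 ± 0.656 and 16.7 ± 1.27 CPM. The strand setting of the counting is not known, and what part the shared bases have in the Rb1 count was not tested.

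Lmnb1 encodes lamin B1, a filament of the nuclear lamina whose loss is a widely used sign of senescence. Lmnb1 (ENSMUSG00000024590, chromosome 18) had 88.2, 84.4 and 85.2 CPM in depleted samples, against 109, 118 and 111 CPM in competent samples. No depleted sample reached the lowest competent one. The fall was 1.31-fold (log2 change -0.39, SE 0.044, adjusted p = 2.94e-06), and the log2 change was -0.42 with the length trend removed.

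Glb1 encodes the lysosomal beta-galactosidase behind the senescence-associated staining. Glb1 (ENSMUSG00000045594, chromosome 9, 114401076 to 114474898, plus strand) had 39.0, 40.1 and 39.3 CPM in depleted samples and 54.0, 52.4 and 53.0 CPM in competent samples. The groups were well apart, with the higher values in competent samples. The fall was 1.35-fold (log2 change -0.43, SE 0.045, adjusted p = 1.67e-06), and 1.32-fold with the length trend removed. Tmppe, a gene on the same strand that shares 165 exon bases with Glb1, was also lower, at 4.25 ± 0.484 CPM in depleted and 8.66 ± 1.04 CPM in competent cells (SD, n = 3 each).

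**Figure D2:**
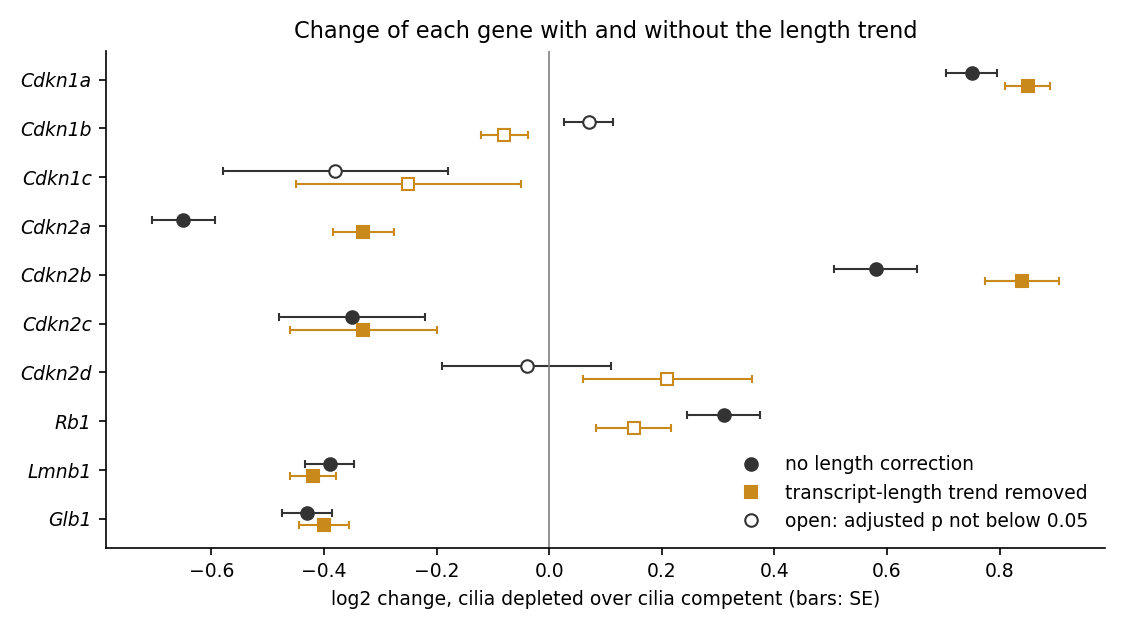
Log2 change of each gene, depleted over competent, with its SE, without a length correction (black circles) and with the transcript-length trend removed (orange squares), where open symbols mark an adjusted p not below 0.05. Cdkn2a moves from -0.65 to -0.33 and Cdkn2b from 0.58 to 0.84 with the correction, Cdkn1b and Cdkn2d change sign and Rb1 loses its call.

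Across all tested genes, log2 change rose with transcript length (Spearman's rho of 0.324 over 13831 genes, which are not independent replicates). The trend moved with the groups, and its part in the changes of single genes was not tested. Of the 7 called genes, 6 kept call and direction when it was removed, all but Rb1.

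The mix of CDK inhibitor reads differed between the groups. Cdkn1a took 65.3%, 63.7% and 64.7% of all reads of the 7 inhibitor genes in depleted samples and 52.4%, 54.7% and 51.6% in competent samples. Cdkn2a took 4.82 ± 0.0846% in depleted and 10.4 ± 0.488% in competent cells (SD, n = 3 each), and Cdkn1b took 18.4 ± 0.526% and 24.1 ± 0.242%. The share of Cdkn2b overlapped between groups, at 10.6 ± 0.415% and 9.81 ± 1.07%. Together the CIP/KIP genes took 83.2 ± 0.362% in depleted and 77.5 ± 1.41% in competent cells. The shares sum to the whole in each sample, so they are not independent of each other, and the level of Cdkn1b itself did not pass the test (adjusted p = 0.151). The groups did not overlap in the share of any inhibitor gene other than Cdkn2b. The levels of Cdkn1c and Cdkn2d did not pass that test either (adjusted p = 0.108 and 0.823). A share that differs is therefore not by itself a change in that gene. The count ratio of Cdkn1a to Cdkn2a was 13.1 to 13.7 in depleted samples, against 4.85 to 5.54 in competent samples. Summed over the 7 genes, the level was 548, 557 and 568 CPM in depleted samples and 417, 402 and 391 CPM in competent samples. These shares are of reads, not of molecules, since transcripts differ in length, and with 3 samples against 3 no test over samples was made on them.

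**Figure D3:**
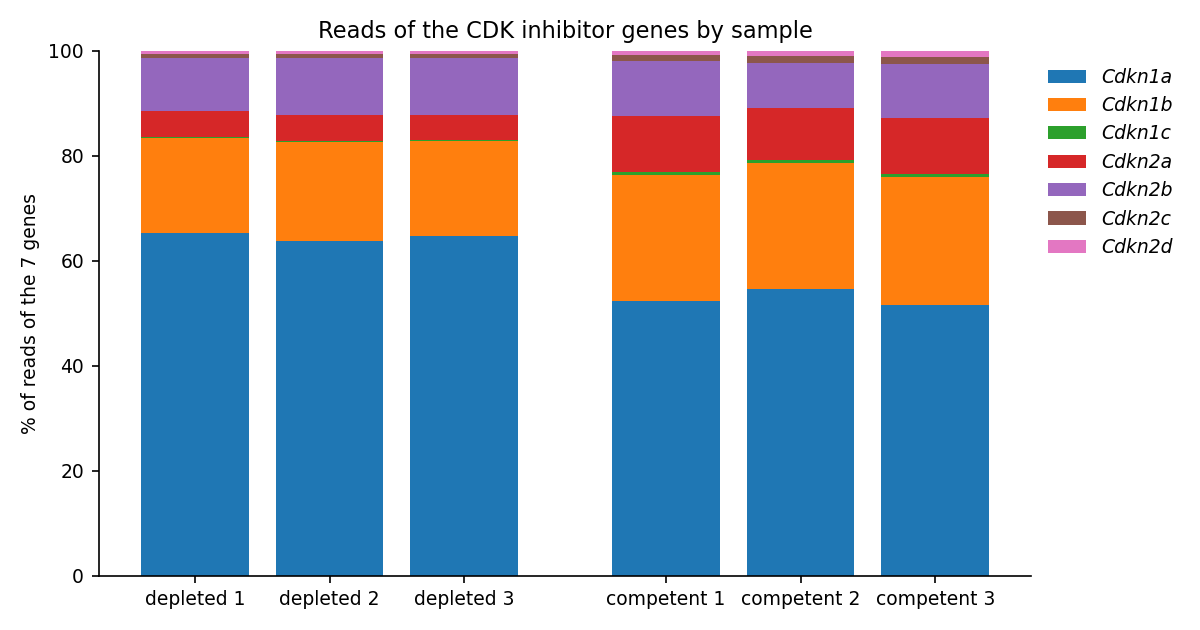
Share of reads (percent, stacked from 0 to 100) that each of the 7 CDK inhibitor genes took of their summed reads, 1 bar for each depleted (left) and competent (right) sample. The Cdkn1a block reaches 63.7% to 65.3% in depleted and 51.6% to 54.7% in competent samples, while the Cdkn2a block is 4.72% to 4.87% against 9.88% to 10.8%.

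Per kilobase of the longest coding transcript, Cdkn1a was the highest of the inhibitors in both groups. It had 173 ± 3.11 CPM per kb in depleted and 103 ± 4.95 CPM per kb in competent cells (SD, n = 3 each). Averaged over both groups, its level was above 96.7% of tested genes on this scale. In depleted cells Cdkn2b followed at 42.5 ± 2.36 and then Cdkn2a at 30.0 ± 0.266 CPM per kb. In competent cells the order of this pair was the other way round, with Cdkn2a at 47.0 ± 3.02 and Cdkn2b at 28.5 ± 3.31 CPM per kb, and in neither group did the samples of the pair overlap. Cdkn1b came next, at 22.5 ± 0.74 CPM per kb in depleted and 21.4 ± 0.564 CPM per kb in competent cells, but with its shortest coding transcript in place of the longest it stood at 58.1 and 55.4, above both. Cdkn2d had 2.65 ± 0.175 CPM per kb in depleted and 2.73 ± 0.472 CPM per kb in competent cells. Cdkn2c had 1.63 ± 0.189 and 2.07 ± 0.149 CPM per kb, and in competent cells the lowest sample of Cdkn2d and the highest of Cdkn2c met at 2.19. The order of Cdkn2c and Cdkn2d also depends on the transcript chosen, since the shortest puts Cdkn2c at 3.63 and 4.62 CPM per kb. Cdkn1c was lowest, at 0.721 ± 0.13 in depleted and 0.936 ± 0.0724 CPM per kb in competent cells. Of the other genes, Lmnb1 stood at 30.2 ± 0.692 and 39.7 ± 1.61 CPM per kb, Glb1 at 16.5 ± 0.231 and 22.2 ± 0.341, and Rb1 at 4.32 ± 0.241 and 3.49 ± 0.0926, each with depleted cells given before competent cells.

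Most genes for the cyclins and CDKs that these inhibitors act on were lower in depleted cells. Of 12 tested, 0 rose and 10 fell, 2 missed the threshold, and the median log2 change was -0.36. Ccne1, which encodes cyclin E1, the partner of CDK2 at the entry into S phase, fell 2.23-fold, with 2.81 ± 0.471 CPM in depleted and 6.32 ± 0.376 CPM in competent cells (SD, n = 3 each). Cdk4, which encodes the target of the INK4 proteins, fell 1.54-fold, with 174 ± 9.17 and 269 ± 6.04 CPM (adjusted p = 5.66e-08). Its partner gene Ccnd2, for cyclin D2, fell 1.48-fold, with 186 ± 1.58 and 275 ± 12.5 CPM. Ccne2 fell 1.59-fold at low level (1.84 ± 0.362 and 2.89 ± 0.877 CPM, adjusted p = 0.0196), a call lost without depleted replicate 2 (log2 change -0.59), depleted replicate 3 (-0.60) or competent replicate 3 (-0.46). The 2 that did not pass were Cdk2 (log2 change 0.04, adjusted p = 0.677) and Cdk6 (log2 change 0.11, adjusted p = 0.123). Cdk6 was lower, with a log2 change of -0.22 (adjusted p = 4.72e-04), when the length trend was removed, and higher, at 0.17 (adjusted p = 0.0277), without depleted replicate 1. It also passed with the replicate number as a block (0.11, adjusted p = 0.0470).

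Partners of RB moved in both directions. Of 16 pocket protein, E2F and DREAM complex genes tested, 6 rose and 3 fell, 7 missed the threshold, and the median log2 change was 0.05, a balance that turned round with the length trend removed. With upper-quartile scaling 5 rose and 4 fell (median 0.00), and with the length trend removed 4 rose and 5 fell (median -0.06). Lin52 and Lin37, subunit genes of the DREAM complex that represses cell cycle genes in quiescence, rose 1.99-fold (7.51 ± 0.76 CPM in depleted and 3.78 ± 0.423 CPM in competent cells, SD, n = 3 each) and 1.61-fold. Not all genes of the list went with them: E2f5 rose 1.21-fold, but Tfdp1 fell 1.26-fold and E2f4 fell 1.16-fold. Rbl1, Rbl2 and Lin9 did not pass. Their log2 changes were -0.14, -0.26 and -0.08 with the length trend removed, against 0.03, -0.09 and -0.01 without that step. E2f3, an activating E2F gene, rose 1.38-fold, with 53.2 ± 0.557 and 38.4 ± 1.57 CPM. E2f6, which encodes a repressor of the family, fell 1.27-fold (adjusted p = 0.00313).

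Regulators of the locus that holds Cdkn2a and Cdkn2b were more often higher. Of 16 tested, 9 rose and 3 fell, 4 missed the threshold, and the median log2 change was 0.37. Kdm6b, which encodes a demethylase that removes the Polycomb mark H3K27me3, rose 5.86-fold, with 359 ± 45.7 CPM in depleted and 61.3 ± 0.671 CPM in competent cells (SD, n = 3 each, adjusted p = 7.76e-12). Polycomb genes of the list changed in both directions. Cbx8 rose 2.93-fold, with 41.6 ± 4.13 and 14.2 ± 0.579 CPM, and Ezh2, the H3K27 methyltransferase gene, rose 1.24-fold. Kdm2b fell 1.16-fold (adjusted p = 0.00719). Bmi1 fell 1.12-fold (adjusted p = 0.0132), a call lost without depleted replicate 1 (log2 change -0.14) or competent replicate 1 (-0.12). Id1, an antagonist of ETS and E-protein activation of p16, rose 1.95-fold, and Tbx3, a repressor of the locus, rose 1.90-fold at low level (5.62 ± 0.896 and 2.96 ± 0.235 CPM).

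Among 12 transcription factor genes whose products act on Cdkn1a, Cdkn1b or Cdkn2b, 9 rose and 1 fell, 2 missed the threshold, and the median log2 change was 0.54. Klf6, an activator of Cdkn1a, rose 5.07-fold, with 3180 ± 26 CPM in depleted and 628 ± 32.9 CPM in competent cells (SD, n = 3 each, adjusted p = 2.81e-13). Klf4, another activator of Cdkn1a, rose 2.19-fold, with 221 ± 14.8 and 101 ± 5.94 CPM. Foxo3, which activates Cdkn1b, rose 2.37-fold, with 178 ± 13.7 and 75.3 ± 3.96 CPM. Myc, which represses Cdkn1a and Cdkn2b, rose 3.21-fold. Trp53, the gene for p53, was the one that fell (log2 change -0.22, 111 ± 2.0 and 129 ± 6.34 CPM), a call lost with the length trend removed (log2 change -0.08, adjusted p = 0.0997).

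Genes for the ubiquitin ligases that break down p27 and p21 went both ways. Of 12 tested, 4 rose and 7 fell, 1 missed the threshold, and the median log2 change was -0.13. Of the core subunit genes of the SCF ligase, Skp1a and Rbx1 fell and the cullin gene Cul1 did not pass (log2 change -0.03, adjusted p = 0.596), though after removal of the length trend its adjusted p was 0.0448. Skp1a fell 3.44-fold, with 65.6 ± 6.68 CPM in depleted and 227 ± 6.36 CPM in competent cells (SD, n = 3 each), and Rbx1 fell 2.00-fold, with 38.0 ± 2.29 and 76.1 ± 2.47 CPM. Cks1b, whose product SCF needs to recognise p27, fell 1.79-fold, with 23.3 ± 1.97 and 42.0 ± 1.18 CPM. Dtl, which encodes the p21 receptor of the CRL4 ligase, rose 1.40-fold (11.2 ± 1.54 and 8.04 ± 0.606 CPM).

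A list that joined nuclear lamina genes with genes of chromatin that changes in senescence had more falls than rises. Of 16 tested, 3 rose and 10 fell, 3 missed the threshold, and the median log2 change was -0.26. Banf1, whose product ties chromatin to the lamina, fell 1.83-fold, with 52.1 ± 2.16 CPM in depleted and 95.3 ± 0.666 CPM in competent cells (SD, n = 3 each). Hmgb1, a chromatin protein gene, fell 1.48-fold, with 204 ± 8.14 and 302 ± 6.63 CPM, and Tmpo, which encodes the lamina-associated LAP2 proteins, fell 1.39-fold. The other lamin genes did not share the direction of Lmnb1: Lmnb2 rose 1.40-fold, with 22.7 ± 2.18 and 16.1 ± 0.891 CPM, and Lmna rose 1.18-fold, with 705 ± 22 and 598 ± 5.15 CPM (adjusted p = 2.09e-04). Lbr, another lamina gene of the list, rose 1.23-fold, while Sun1 fell 1.24-fold and Emd and Sun2 did not pass. With the length trend removed, the log2 change of Emd went from -0.06 to 0.15 and that of Sun2 from 0.02 to -0.08. Lamina genes of the list thus went both ways.

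Lysosomal genes that work beside Glb1 also fell more often than they rose. Of 13 tested, 4 rose and 9 fell, 0 missed the threshold, and the median log2 change was -0.36. The 4 that rose include Tfeb and Tfe3, which encode transcription factors and not lysosomal proteins. Ctsa and Neu1 encode the protective protein and the sialidase that form a complex with beta-galactosidase. Ctsa fell 1.70-fold, with 88.0 ± 2.44 CPM in depleted and 149 ± 4.07 CPM in competent cells (SD, n = 3 each), whereas Neu1 rose 1.29-fold, with 91.6 ± 1.08 and 71.0 ± 1.95 CPM. The hydrolase genes Gusb and Fuca1 fell 1.95-fold and 1.59-fold, and Gla, for alpha-galactosidase, rose 1.57-fold.

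Proliferation markers did not move together. Of 8 tested, 2 rose and 3 fell, 3 missed the threshold, and the median log2 change was -0.09. Mki67, the gene of the Ki-67 antigen, rose 1.72-fold, with 118 ± 7.32 CPM in depleted and 68.4 ± 11.3 CPM in competent cells (SD, n = 3 each, adjusted p = 4.38e-06). Top2a, for topoisomerase II alpha, rose 1.21-fold, a call lost with the length trend removed (log2 change 0.09, adjusted p = 0.222). Birc5, for survivin, fell (log2 change -0.27, SE 0.082). Aurkb, for Aurora kinase B, fell (log2 change -0.22), a call lost with DESeq2 (adjusted p = 0.0575), with the length trend removed (log2 change -0.09) and without depleted replicate 1 (-0.19) or depleted replicate 3 (-0.20).

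**Figure D4:**
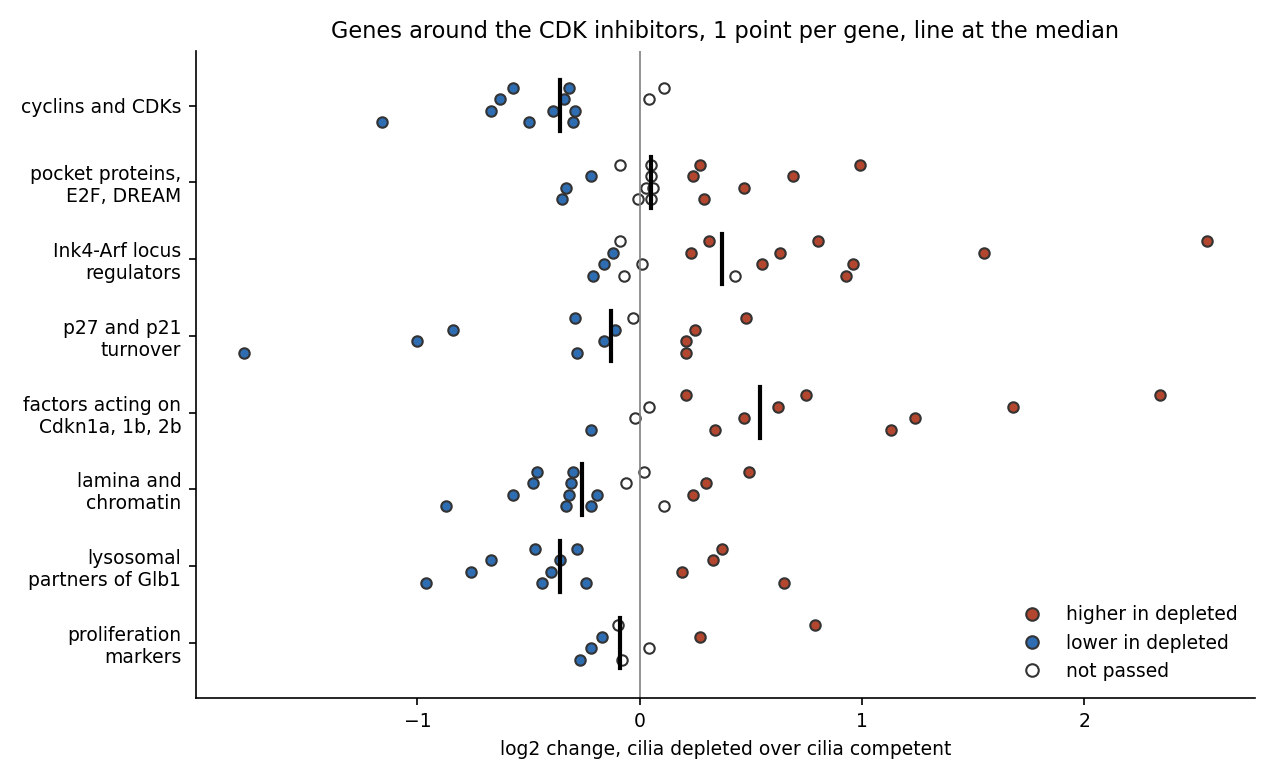
Log2 change, depleted over competent, of each tested gene in 8 lists around the CDK inhibitors, coloured by the call at an adjusted p below 0.05, with a black line at the median of each list. The 10 called cyclin and CDK genes all lie below 0, while 9 of 12 factors acting on Cdkn1a, Cdkn1b and Cdkn2b were called above 0.

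The counts of these lists are descriptions beside the 34.9% of all genes called higher and the 34.3% called lower, and nothing particular to a list follows from them. Among 10468 genes compared, those whose log2 CPM followed Cdkn1a most closely over the 6 samples were Ddit3, Snhg5 and Setd4, with Pearson's r of 0.999, 0.999 and 0.9986. Those closest to Cdkn2a were Cbx3, Uchl1 and Fscn1, with r of 0.9995, 0.9987 and 0.9986. Since 2440 and 2491 of 10468 genes compared had r above 0.95 with Cdkn1a and with Cdkn2a, and the 6 samples form 2 groups, this order is mostly that of the group difference.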

How the data were processed

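The authors deposited raw, unnormalized read counts for each gene in 1 table with a column per sample (0 columns belonged to other samples). The submitters' processing notes name genome GRCm38, STAR 2.7.1a, featureCounts, cutadapt 1.16, DESeq2 1.34.0, MultiQC 1.3 and FastQC 0.11.9. Their roles, the annotation and the strand setting are not given in the sources used here. Per the labels' protocols, 500 ng of RNA went through poly-A selection, a directional kit and 10 PCR cycles. Columns named KO were taken as cilia depleted and those named WT as cilia competent, with matching replicate numbers.

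The groups were compared by edgeR's two-sided quasi-likelihood test (glmQLFit, glmQLFTest; edgeR 4.0.16, R 4.3.3) after filterByExpr and TMM scaling. Adjusted p-values are Benjamini-Hochberg over the 13839 genes kept, and the threshold was 0.05. Fold changes are depleted over competent, with SE on the log2 scale. The code was tested on simulated counts. Positions, exon overlaps and transcript lengths come from GENCODE M21 (GRCm38), and promoters from RefSeq. Pairs of samples of a group differed by a chi-square per degree of freedom of 5.59 to 9.97, so none was a repeat deposit. The length trend was removed with a loess curve per library (span 0.5) used as an offset. Named genes are the 10 members, up to 4 called genes of each list with the largest change, and the 3 genes most like Cdkn1a and Cdkn2a with a mean log2 CPM of at least 2. Symbols of Gm with digits, symbols ending in Rik and genes without a symbol were left out of that ranking. Cdk2, Cdk6, Neu1, Trp53, Ezh2, Bmi1, Lmna, Kdm2b, Cul1 and the cell type markers were named after their values were seen. So were Lbr, Sun1, Emd, Sun2, Tfeb, Tfe3, E2f4, E2f5, Tfdp1, Rbl1, Rbl2 and Lin9. Members and lists were chosen with earlier results of these data known. Other alternatives were upper-quartile and RLE scaling, limma-voom (limma 3.58.1), DESeq2 1.42.0, no filter, 1 CPM in 3 samples, a replicate block, leaving out each sample, and stricter thresholds. Some genes of the lists are not reported here.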

Additional observations from a re-analysis of the deposited data

How the results depend on the processing

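Over 15 alternatives each, Cdkn1a, Cdkn2a, Cdkn2b, Lmnb1 and Glb1 kept direction and call, and Cdkn1c stayed lower without passing. With the length trend removed, the log2 change of Cdkn1b was -0.08, that of Cdkn2d 0.21 and that of Rb1 0.15, and of Cdk6 -0.22. The call of Cdkn2c (log2 change -0.35) was lost with DESeq2 and at an adjusted p below 0.01, and leaving out 1 sample gave -0.41 to -0.25. For Cdkn2d, leaving out 1 sample gave -0.18 to 0.03, and for Cdk2 it gave -0.04 to 0.13, with -0.01 under upper-quartile scaling. Requiring 1.5-fold as well left 3936 genes (2332 higher and 1604 lower) and 2 members (1 higher and 1 lower). Of 645 comparisons over 43 other genes, 623 kept direction and call. These 43 were Wdr35, Ccnd1 and most list genes named above, without the cell type markers. Replicate numbers did not pair the samples: deviations of same-numbered samples correlated at -0.028 to 0.013, and 0 of 3 depleted samples correlated best with their own number. With the number as a block, 9526 genes and 7 members were called, and the calls of the 10 members did not change. Depth limits Cdkn1c, Cdkn2c and Cdkn2d, with 35 to 197 counts a sample. The causes were not tested.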
